A study of Homo sapiens with 6 samples.

Results

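The 6 enzyme genes described here make NADPH or carry sugar phosphates through the pentose phosphate pathway: PGD, PGLS, TALDO1, TKT, ME1 and IDH1. They were chosen by name, with earlier results of these data known. Every probe set annotated to 1 of them alone was taken, which gave 17 probe sets out of 54613 that are not controls. Of the 17, 15 passed the filter on low signal and were tested, out of 27307 tested on the whole array, and each of the 6 genes kept at least 1. Expression was measured in the established human tongue carcinoma line HSC-3 on 6 Affymetrix arrays of bulk RNA. The TAT-2 group (3 arrays) carried a line labelled as overexpressing trypsin-2, a digestive serine protease, and the vector group (3 arrays) a line with a control vector, labelled as making no trypsin-2. Both lines were cultured for 48 h, and the titles number the arrays 1 to 3 in each group. The labels do not say whether a line was 1 clone or a pool, or whether replicates were separate cultures. The p-values therefore measure only the spread between these arrays, which may be technical.

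NADPH is the electron donor for glutathione and thioredoxin reduction and for the synthesis of fatty acids and sterols. In the oxidative branch of the pentose phosphate pathway, glucose 6-phosphate is oxidised to a lactone, PGLS opens the lactone to 6-phosphogluconate, and PGD oxidises that to ribulose 5-phosphate with release of NADPH. In the reversible branch, TKT and TALDO1 move carbon units between sugar phosphates and return them to glycolysis. ME1, which turns malate into pyruvate, and IDH1, which turns isocitrate into 2-oxoglutarate, make NADPH in the cytosol outside the pathway. Several of these genes are known targets of the transcription factor NRF2, and ME1 is also a gene of lipogenic cells.

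The arrays have limits that touch every direction below. The brighter probe set of PRSS2, the trypsin-2 gene, read 20.4, 13.8 and 14.6 on TAT-2 arrays 1, 2 and 3, and 19.6, 80.8 and 83.2 on vector arrays 1, 2 and 3. This goes against the labels, so each direction rests on the titles, and TAT-2 stands throughout for the arrays labelled TAT-2. The names of both PRSS2 probe sets mark probes that can read other sequences, and the TAT-2 values lie close to the filter level of 15.2. Whether these probe sets read the introduced gene was not tested. Both arrays numbered 1 stood apart from the other 4 on the first principal component (45.6% of the variance). Of 7 squamous markers KRT5, KRT14, EPCAM and CDH1 passed the filter, with summed signals of 12942 to 15155 on TAT-2 and 11122 to 16788 on vector arrays, and they moved in opposite directions. With the block EPCAM (log2 fold change -0.45) and CDH1 (-0.44) fell, while KRT5 was at 0.31 and KRT14 at 0.22 without being called. Of 6 fibroblast genes 2 passed it (COL1A1 and DCN), and the summed signal of all 23 fibroblast probe sets was 234 to 282 on TAT-2 arrays and 301 to 328 on vector arrays. The 2 that passed were not lower, at 0.22 for COL1A1 and 0.20 for DCN, and neither was called. Of 6 leukocyte genes only CD14 passed it, while PTPRC and CD3E did not, and the summed signal was 82.5 to 134.9 on TAT-2 arrays and 64.4 to 100.7 on vector arrays. The part of these markers in the results was not tested. In bulk RNA, fewer cells of a type and less RNA per cell cannot be told apart.

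PGD was the one member gene that fell, by 1.37-fold in TAT-2 cells, on the scale of log2(signal + 16) used for every fold and difference here. A further probe set of TKT, dimmer than its main one, fell 1.55-fold. The main probe sets of TKT, TALDO1, ME1, IDH1 and PGLS did not pass the test. Both calls come from limma with the replicate number as a block, adjusted over all 27307 tested probe sets at 0.05. The main fit as planned had no block, because the labels state no pairing, and the block was the alternative. Fitted without it, limma called 0 of the 15 tested member probe sets, 2 of which had an unadjusted p below 0.05, and 0 of the 6 genes on their brightest probe set. The background without the block was 0.0293% of probe sets and 0.0576% of genes. With the block 2 of 15 member probe sets and 1 of 6 member genes were called, against a background of 5.21% of probe sets and 6.96% of genes in either direction. Called lower were 2.66% of all probe sets and 3.46% of genes, and called higher 2.55% and 3.5%. Because the members were chosen with earlier results of these data known, the comparison with these shares is a description. The groups did not overlap for 2 of the 15 probe sets, the same 2, against 14.1% of all tested probe sets (7.35% with TAT-2 lower). With 3 arrays against 3, an exact permutation test of 1 probe set cannot go below p = 0.1.

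**Figure D1:**
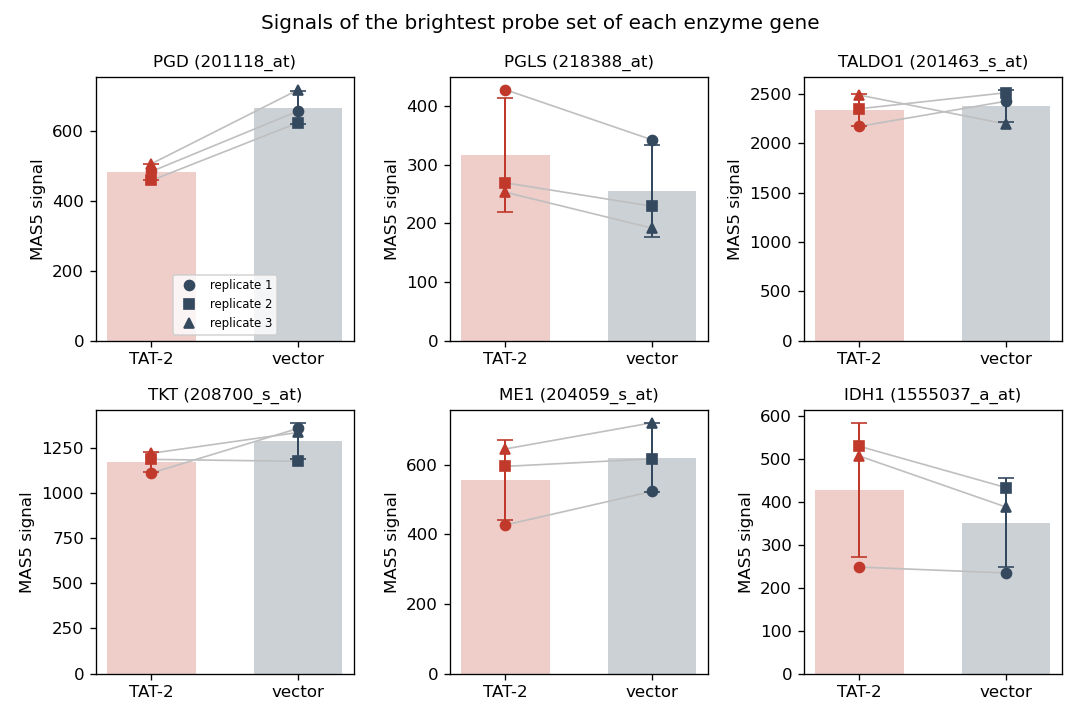
Signal of the brightest probe set of each of the 6 enzyme genes (linear MAS5 signal, axes from 0) on TAT-2 arrays (left, red) and vector arrays (right, grey). Points are single arrays with a marker for each replicate number, grey lines join the same number, bars are means and error bars are SD (n = 3 each). The groups are apart for PGD, at 458 to 506 in TAT-2 and 623 to 717 in vector arrays, and overlap for the other 5 genes.

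PGD, 6-phosphogluconate dehydrogenase, read 483.7, 458.1 and 505.8 on TAT-2 arrays 1, 2 and 3, against 656.6, 623.4 and 717.4 on vector arrays 1, 2 and 3, on its bright probe set 201118_at. All 3 TAT-2 arrays lay below all 3 vector arrays. Means were 482.5 ± 23.9 and 665.8 ± 47.7 (SD, n = 3 each). The log2 difference was -0.43, -0.43 and -0.49 by replicate number, so the size was alike in all 3 pairs. Limma gave a log2 fold change of -0.45 ± 0.07 (SE, 95% interval -0.60 to -0.30) with the block and an adjusted p of 0.0035. Without the block the value was the same, with an SE of 0.10, an unadjusted p of 0.00184 and an adjusted p of 0.206 (exact permutation p = 0.1). The call was lost without the intensity trend of the variance (adjusted p = 0.156 with the block). PGD also has 2 dim probe sets close to the filter level of 15.2 in signal, at 7.6 to 25.8 on TAT-2 arrays and 10.5 to 24.5 on vector arrays. Their log2 fold changes were 0.05 ± 0.18 and 0.01 ± 0.24 (SE, with the block), and their pairs differed in sign. When the 3 probe sets were averaged PGD was not called (log2 fold change -0.13, adjusted p = 0.521 with the block).

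The windows from 250 bases before to 50 bases after the start of PGD and TKT, the genes with a called probe set, and of ME1, which was not called, are shown because they can be compared for the core of the antioxidant response element bound by NRF2. The sequences are RefSeq's for build GRCh38.p14, in the direction of the gene, with capitals at matches to TGACNNNGC or TGAGNNNGC on either strand. PGD lies on the plus strand (chr1:10398814-10399113), TKT on the minus strand (chr3:53255973-53256272) and ME1 on the minus strand (chr6:83431002-83431301).
PGD: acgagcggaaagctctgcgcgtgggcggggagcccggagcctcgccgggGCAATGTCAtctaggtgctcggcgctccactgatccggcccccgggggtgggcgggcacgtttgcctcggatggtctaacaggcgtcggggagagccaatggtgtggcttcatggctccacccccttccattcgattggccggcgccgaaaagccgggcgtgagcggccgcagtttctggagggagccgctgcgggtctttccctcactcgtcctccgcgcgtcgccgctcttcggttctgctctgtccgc
TKT: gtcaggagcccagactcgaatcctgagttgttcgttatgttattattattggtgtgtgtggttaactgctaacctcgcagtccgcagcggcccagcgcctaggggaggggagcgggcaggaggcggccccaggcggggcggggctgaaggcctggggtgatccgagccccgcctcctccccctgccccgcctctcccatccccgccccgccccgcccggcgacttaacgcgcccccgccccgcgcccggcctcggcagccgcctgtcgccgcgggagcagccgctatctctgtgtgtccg
ME1: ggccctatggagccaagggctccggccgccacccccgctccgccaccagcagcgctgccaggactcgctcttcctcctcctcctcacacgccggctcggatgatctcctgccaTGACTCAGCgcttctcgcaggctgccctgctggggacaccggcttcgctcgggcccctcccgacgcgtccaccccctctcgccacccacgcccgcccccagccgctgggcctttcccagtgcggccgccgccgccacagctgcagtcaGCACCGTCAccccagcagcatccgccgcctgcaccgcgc

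The ME1 window held 2 matches to TGACNNNGC, 1 on each strand, and the PGD window held 1, on the opposite strand. The TKT window held none of either motif. The windows of TALDO1 and PGLS held none, and of the 2 start sites that RefSeq gives IDH1, 1 window held TGACNNNGC and TGAGNNNGC once each and the other held neither. Of 35116 such windows of 300 bases, 13.3% held TGACNNNGC and 18.3% held TGAGNNNGC. No member window held the E-box CACGTG, which 7.26% of all windows held. All 7 windows of the 6 genes held the GC box GGGCGG, as did 45% of all windows. The 4 motifs were chosen after the expression values were seen, and both strands were searched.

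PGLS, 6-phosphogluconolactonase, works a step before PGD and went the other way without passing the test. Its brightest probe set, 218388_at, read 428.5, 269.4 and 253.4 on TAT-2 arrays 1, 2 and 3, against 342.8, 229.4 and 192.0 on vector arrays. TAT-2 was above vector within each replicate number, while the groups overlapped because both arrays numbered 1 were high. Means were 317.1 ± 96.8 and 254.7 ± 78.5 (SD, n = 3 each). Limma gave a log2 fold change of 0.30 ± 0.08 (SE, 95% interval 0.13 to 0.47) with the block, at an adjusted p of 0.052. Without the block the SE was 0.25 and the adjusted p 0.892. With a pseudocount of 64 and the block it was called (adjusted p = 0.0477). Without the block, leaving out single arrays moved the fold change between 0.07 (without TAT-2 array 1) and 0.52 (without vector array 1). The next probe set, 218387_s_at, read 343.9, 204.7 and 207.0 on TAT-2 arrays, against 271.1, 217.1 and 187.0 on vector arrays. Its pairs differed in sign (log2 0.33, -0.08 and 0.14), and its interval with the block ran from -0.08 to 0.33. A pair of dim PGLS probe sets had group means of 22.9 to 23.7 in TAT-2 and 18.3 to 27.3 in vector arrays, with log2 fold changes of -0.13 and 0.20, and neither was called.

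TKT, transketolase, has 3 probe sets, of which 1 was called. The brightest, 208700_s_at, read 1110, 1185 and 1219 on TAT-2 arrays 1, 2 and 3, against 1357, 1175 and 1335 on vector arrays. The groups overlapped, and limma gave a log2 fold change of -0.13 ± 0.07 (SE, 95% interval -0.29 to 0.02) with the block, at an adjusted p of 0.361. The second, 208699_x_at, whose name marks probes that can read other sequences, had means of 713.0 ± 97.2 in TAT-2 and 767.6 ± 137.1 in vector arrays (SD, n = 3 each). Its log2 fold change was -0.10 ± 0.07 (SE, with the block) and was not called.

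The dim TKT probe set 228205_at read 76.5, 56.3 and 51.9 on TAT-2 arrays 1, 2 and 3, against 122.6, 86.6 and 102.4 on vector arrays. All TAT-2 arrays lay below all vector arrays, and the difference was -0.58, -0.50 and -0.80 by replicate number. Limma gave -0.63 ± 0.12 (SE, 95% interval -0.90 to -0.36) and an adjusted p of 0.014 with the block, and an adjusted p of 0.355 without it. With the block the call was lost without the intensity trend (adjusted p = 0.131), without a filter (adjusted p = 0.0667) and without the arrays numbered 1 (adjusted p = 0.058). Set against 208700_s_at on the same array and centred over the 6 arrays, its log2 ratio was 0.09, -0.35 and -0.48 on TAT-2 arrays and 0.39, 0.16 and 0.19 on vector arrays. The groups did not overlap (exact two-sided permutation p = 0.1, the smallest possible, and 0.25 adjusted over 5 such ratios). With 3 arrays a group this test could not reach 0.05, so a difference between the TKT probe sets was not shown. Averaged over the 3 probe sets, TKT was called with the block (log2 fold change -0.29, adjusted p = 0.0328), and it was the one member gene called that way.

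TALDO1, transaldolase, has 1 probe set and read 2172, 2350 and 2488 on TAT-2 arrays 1, 2 and 3, against 2427, 2513 and 2195 on vector arrays. The groups overlapped over nearly their whole range. The pairs differed in sign (log2 -0.16, -0.10 and 0.18), and the fold change was -0.03 ± 0.08 (SE). The 95% interval with the block was -0.19 to 0.14 on the log2 scale, so that a change as large as the 1.37-fold fall of PGD lies outside it.

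**Figure D2:**
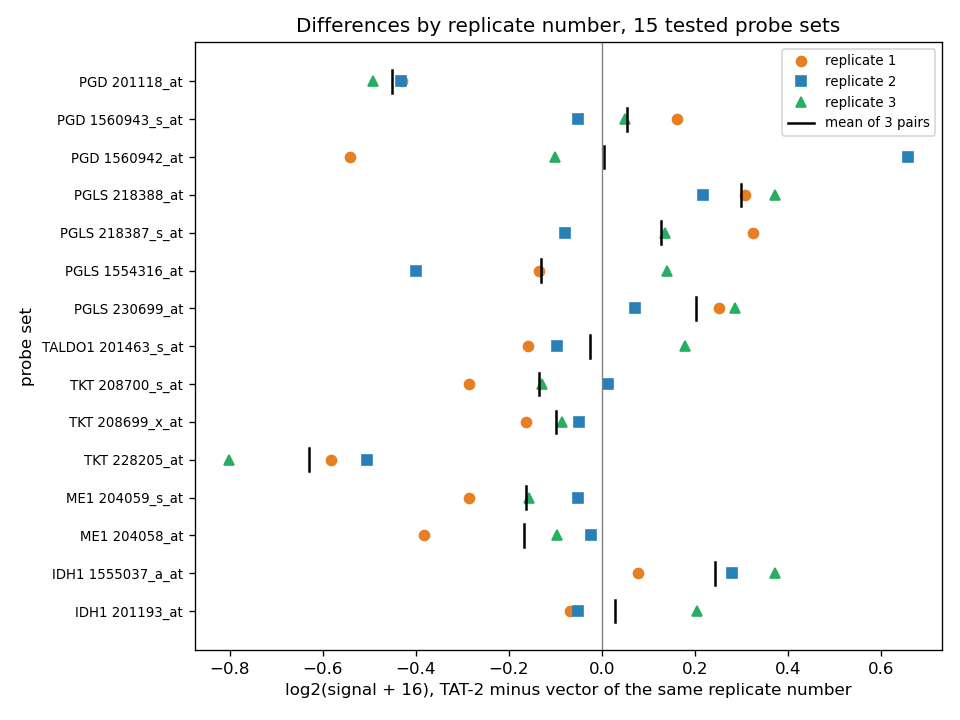
Difference of log2(signal + 16) between the TAT-2 and the vector array of the same replicate number (horizontal axis), for the 15 tested probe sets of the 6 genes (vertical axis). Markers are the 3 replicate numbers and black ticks are their means. All 3 markers lie on 1 side of 0 for 8 probe sets. They lie left for PGD 201118_at (-0.43 to -0.49), TKT 228205_at (-0.50 to -0.80), TKT 208699_x_at, ME1 204059_s_at and ME1 204058_at, and right for PGLS 218388_at, PGLS 230699_at and IDH1 1555037_a_at.

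ME1, the cytosolic malic enzyme, was lower in TAT-2 cells within each replicate number without passing the test. Its brightest probe set, 204059_s_at, read 427.1, 595.5 and 645.6 on TAT-2 arrays 1, 2 and 3, against 523.7, 617.2 and 720.9 on vector arrays. The groups overlapped. Limma gave -0.16 ± 0.07 (SE, 95% interval -0.32 to -0.01) with the block, at an unadjusted p of 0.0431 and an adjusted p of 0.251. The second probe set, 204058_at, gave -0.17 ± 0.09 (adjusted p = 0.355 with the block). Both values came mainly from replicate 1, with pair differences of -0.28 and -0.38 there and -0.02 to -0.16 in replicates 2 and 3. The log2 ratio of these 2 probe sets differed between the groups by 0.004, with SDs of 0.05 in TAT-2 and 0.08 in vector arrays. A further ME1 probe set, 211204_at, lay below the filter at 3.1 to 17.1 on TAT-2 arrays and 2.3 to 9.7 on vector arrays, and was not tested.

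IDH1, the cytosolic isocitrate dehydrogenase, has 2 tested probe sets, and neither was called. The brightest, 1555037_a_at, read 247.7, 528.8 and 506.1 on TAT-2 arrays 1, 2 and 3, against 234.0, 432.6 and 387.3 on vector arrays. It was higher in TAT-2 within each replicate number, and the groups overlapped. Limma gave 0.24 ± 0.08 (SE, 95% interval 0.07 to 0.42) with the block, at an adjusted p of 0.116, and 0.948 without it.

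The other tested IDH1 probe set, 201193_at, read 220.1, 380.2 and 456.4 on TAT-2 arrays, against 231.6, 394.6 and 393.8 on vector arrays. Its pairs differed in sign, and its log2 fold change was 0.03 ± 0.08 (SE, with the block). The centred log2 ratio of 1555037_a_at to 201193_at was 0.01, 0.31 and -0.003 on TAT-2 arrays and -0.13, -0.02 and -0.17 on vector arrays, which did not overlap (exact permutation p = 0.1, adjusted p = 0.25 over the 5 ratios), a test that could not reach 0.05 here. A dim IDH1 probe set, 242956_at, lay below the filter at 2.2 to 10.5 on TAT-2 arrays and 8.8 to 16.2 on vector arrays, and was not tested.

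The members differed from each other in how far both arrays numbered 1 stood from numbers 2 and 3. IDH1 1555037_a_at was lower on array 1 by a log2 of -1.02 in TAT-2 and -0.77 in vector cells, and only 2.17% of all tested probe sets had a larger mean shift. ME1 204059_s_at was lower there by -0.52 and -0.34. PGLS 218388_at was higher there by 0.68 and 0.67, with 5.94% of probe sets shifted further. PGD 201118_at moved by 0.01 and -0.03, and 97.5% of probe sets moved more. TALDO1 moved by -0.15 and 0.05, and TKT 208700_s_at by -0.11 and 0.11. On these probe sets the shift of replicate 1 was thus larger than the difference between groups for IDH1, ME1 and PGLS, and smaller for PGD. The dim probe sets of PGD and PGLS went the other way. Mean shifts were -0.34 and 0.18 for those of PGD, above their group differences, and 0.05 and -0.16 for those of PGLS, below theirs in size.

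The genes whose profile over the 6 arrays lay nearest to PGD were GATA3, HK2 and KMT5B. Likeness was the root mean square difference of log2 profiles, each centred on its own mean, and these 3 lay at 0.05, against a median of 0.30 over 12150 genes. They were picked as the smallest distances, so lying far below the median was fixed by the choice. HK2, hexokinase 2, supplies glucose 6-phosphate. For TKT the nearest were PACC1, GABPB1-AS1 and ZNF502, and for TALDO1 RRP1B, ANP32A and SRP14. For ME1 they were THNSL1, GPX8 and POC1B, for IDH1 AIM2, SGK1 and RAB27B, and for PGLS RGS12, GBF1 and POM121C. Among the members themselves TKT and TALDO1 were nearest (0.12) and PGLS and IDH1 farthest apart (0.74).

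PGD lies near the end of the short arm of chromosome 1, among genes that were lower as well. Of the 10 tested genes on each side of it, 18 of 20 were lower in TAT-2 cells, with a median log2 fold change of -0.25, and 15 were lower in all 3 replicate pairs. By replicate number the median of the neighbours was -0.25, -0.15 and -0.16. PGD lay below that median by -0.18, -0.28 and -0.33, and 1 neighbour, FBXO2, lay below PGD (log2 fold change -0.58). With the block 1 of the 20 was called, against 6.96% of all genes, and it was EXOSC10 (-0.32 ± 0.08, SE), a subunit of the RNA exosome. Among 12116 genes taken in the same way, 1.92% had neighbours with a median as low. The neighbours of the other members had medians from -0.05 (IDH1) to 0.01 (TKT), with 9 to 12 of 20 lower. Those called with the block were PNPLA2 beside TALDO1 (-0.48), NT5E beside ME1 (0.30), and MAP2 (-0.59) and FN1 (-1.25) beside IDH1. None was called beside PGLS or TKT.

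**Figure D3:**
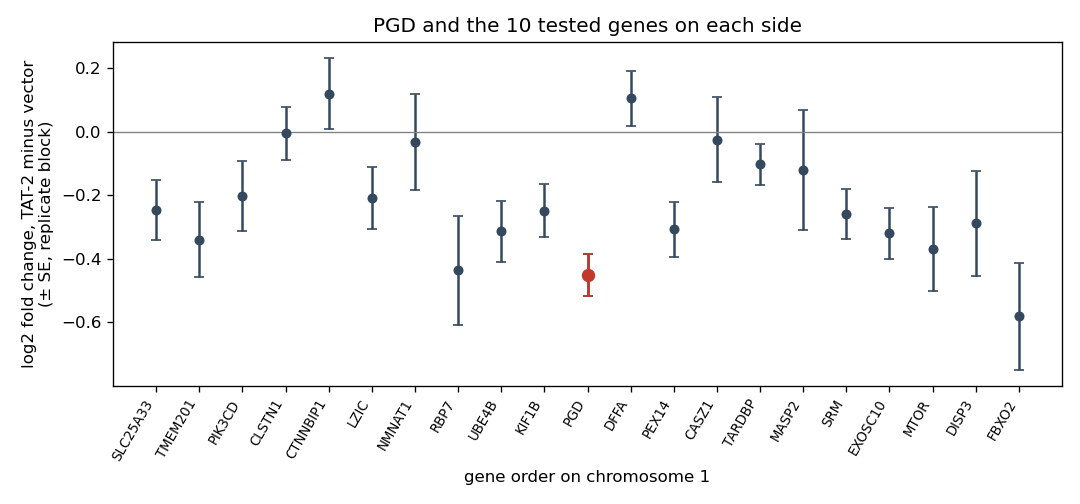
Log2 fold change of TAT-2 over vector (vertical axis, ± SE from the fit with the replicate block) for PGD (red) and the 10 tested genes on each side (grey), in gene order along chromosome 1. CTNNBIP1 and DFFA lie above 0 and the other 18 neighbours below it, while PGD stands at -0.45.

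The lower level reached far beyond these neighbours. When all 1260 tested genes of chromosome 1 were taken in gene order in blocks of 20, each of the first 13 blocks had a median below 0, from -0.26 to -0.12. Those 260 genes, from LINC01128 to MED18, had a median log2 fold change of -0.17, and 84.2% of them were lower in TAT-2 cells. The other 1000 genes of the chromosome had a median of 0.01, with 46.6% lower and block medians from -0.06 to 0.11. The extent of 13 blocks was chosen after the values were seen, so these medians are a description. By replicate number the 260 genes had medians of -0.17, -0.19 and -0.17, and of -0.16 with quantile normalization or with array medians centred. With the block 34 of the 260 were called lower and 0 higher, against a background of 3.46% of genes called lower. PGD lay low within the stretch, with 17 of its 260 genes below it. Neighbouring enzymes of the same metabolism share the stretch: H6PD, the hexose phosphate dehydrogenase of the endoplasmic reticulum, was at -0.06 ± 0.21 (SE, not called), and NADK, which makes NADP from NAD, fell with the block (-0.29 ± 0.07, adjusted p = 0.0496). Of 4 other tested NADK probe sets 1 had the opposite sign and none was called.

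**Figure D4:**
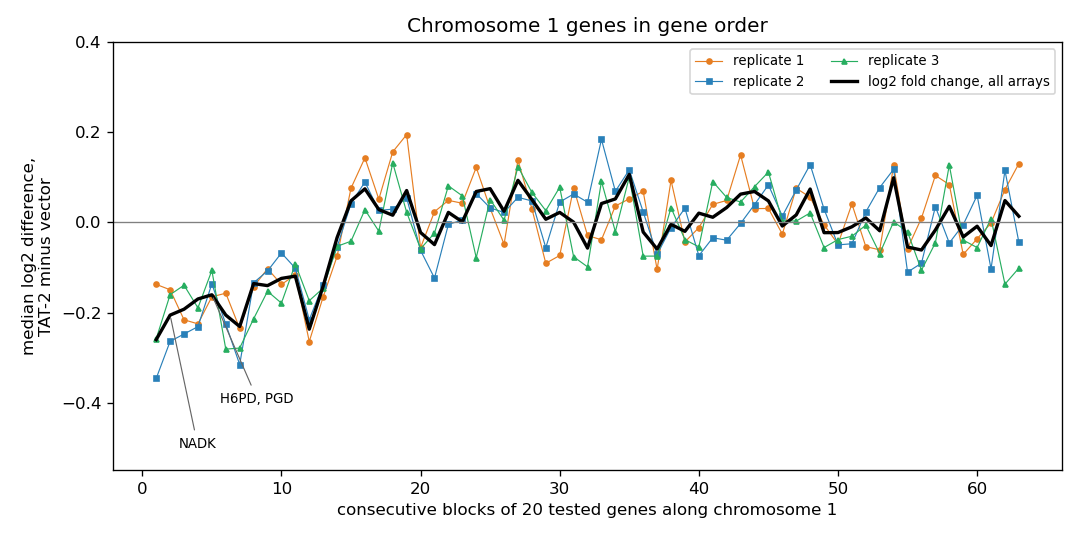
Median log2 difference between TAT-2 and vector arrays (vertical axis) for consecutive blocks of 20 tested genes along chromosome 1 (horizontal axis, block number), over all arrays (black) and by replicate number (colours). The first 13 blocks, which hold NADK, H6PD and PGD, lie between -0.26 and -0.12, and later blocks between -0.06 and 0.11.

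Other genes of the pathway and of NADPH metabolism were read from lists of named enzymes on their brightest probe set. Over all 12151 genes the median log2 fold change was -0.002, and that of the 6 members was -0.08, with 4 of the 6 below 0. Of 10 other pentose phosphate enzymes tested, none was called by limma, 0 of them had an unadjusted p below 0.05 in the fit lacking the block and 2 in the blocked one, where 22.3% of all genes had such a p, and their median was -0.04. The smallest p-values belonged to RPE, the ribulose phosphate epimerase (0.17 ± 0.07, SE), and PRPS2, which makes phosphoribosyl pyrophosphate (-0.17 ± 0.07). TKTL1 and TKTL2, relatives of TKT, lay below the filter.

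Of 11 other NADPH makers and NAD kinases 2 rose and 1, NADK, fell with the block, against 6.96% of all genes called, and the median was 0.04. Over all 6 lists the blocked fit called 12 genes, 5 when no filter was set and 0 without the intensity trend. MTHFD2L, a mitochondrial folate enzyme, rose to 721.9 ± 12.4 in TAT-2, against 492.2 ± 18.6 in vector cells (SD, n = 3 each), 0.54 ± 0.07 (SE) on the log2 scale. NNT, the mitochondrial transhydrogenase that makes NADPH, rose by 0.46 ± 0.12 (adjusted p = 0.0458). MTHFD2L has 5 further tested probe sets and NNT has 2, and for either gene 1 of them ran opposite in sign and 1 was called. Of 12 tested reductases that use NADPH, 6 fell and 1 rose with the block, against 3.46% of all genes called lower and 3.5% called higher, and the median was -0.30. This list was chosen with earlier results of these data known, so its share of calls is a description. The steroid reductases AKR1C2 (-1.83 ± 0.18), AKR1C1 (-1.42 ± 0.11) and AKR1C3 (-1.10 ± 0.10) fell most, and TXNRD2, the mitochondrial thioredoxin reductase, rose by 0.55 ± 0.11.

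Of 13 tested genes of glucose uptake and hexose phosphates HK2 fell with the block (-0.43 ± 0.08, adjusted p = 0.0119) and none rose, which is near the 6.96% of all genes called, and the median was -0.001. Both other tested probe sets of HK2 had the opposite sign and were not called. Of 8 genes of fatty acid and sterol synthesis SCD, the stearoyl-CoA desaturase, rose with the block (1.31 ± 0.23), and its groups overlapped, at 707 ± 562 in TAT-2 and 213.3 ± 97.3 in vector cells (SD, n = 3 each). All 8 were above 0, with a median of 0.09. Of 7 genes of NRF2 and its regulators none was called by limma, 2 had an unadjusted p below 0.05 in the blocked fit (22.3% of all genes), and the median was -0.08. The smallest p-values were those of CUL3, a scaffold of the ligase that degrades NRF2 (-0.19 ± 0.07), and MAFG, a DNA-binding partner of NRF2 (-0.28 ± 0.11). Fitted without the block, limma called 0 of the 61 tested genes in these 6 lists, and 12 had an unadjusted p below 0.05, against 9.38% of all genes. Of those 12, 7 were reductases, and the lists were chosen with earlier results of these data known.

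**Figure D5:**
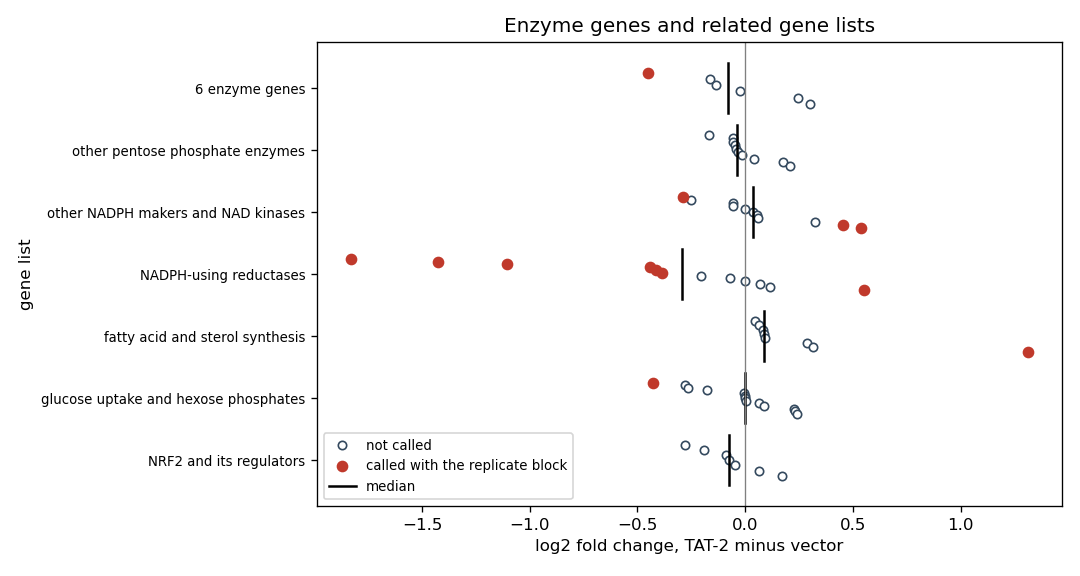
Log2 fold change of TAT-2 over vector (horizontal axis) for each tested gene of the 6 enzyme genes and of 6 related lists (vertical axis). Filled points were called by limma with the replicate block, open points were not, and black ticks are medians. PGD is the filled point of the first row at -0.45, and the reductases hold the farthest points to the left (-1.83 to -1.10).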

How the data were processed

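RNA of 3 TAT-2 and 3 vector arrays was measured on an Affymetrix platform. Each probe set has 1 deposited intensity on a linear scale, and per the submitters' processing notes the authors used MAS5 (no version stated there). The mean signal between percentiles 2 and 98 was 99.99 on each array, so this scaling was kept. Symbols came from the platform annotation, updated by gene identifier. Signals were transformed as log2(signal + 16). Probe sets were tested where their mean reached the median of all (4.96, a signal of 15.2). Limma 3.58.1 in R 4.3.3 (lmFit, eBayes with an intensity trend) was fitted to all tested probe sets, with Benjamini-Hochberg adjustment at 0.05. Data were simulated with a shift shared by same-numbered arrays and with variances drawn from the fitted intensity trend, as the blocked fit assumes. On simulated data, a log2 change of 0.5 was recovered for 0% of 100 changed probe sets without the replicate block and 29% with it. For a change of 1 these were 12% and 74%, and 7.2% of the blocked calls were false, rates that hold only under these assumptions. A probe set that was not called may therefore still have changed. A gene was read on its brightest tested probe set.

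Deviations from the group means correlated between same-numbered arrays, with r = 0.64, 0.39 and 0.25 for numbers 1, 2 and 3 over tested probe sets. Each is over 0.1, so the number was also used as a block. Differently numbered arrays also correlated, TAT-2 array 2 with vector array 3 at 0.32 and TAT-2 array 3 with vector array 2 at 0.20. These correlations therefore do not show that arrays numbered 2, or arrays numbered 3, belong together as pairs. Named genes are all member probe sets, up to 4 called genes of each list by size (with none called, the 2 of smallest p), the 3 nearest genes per member, and called neighbours. H6PD, FBXO2, CTNNBIP1, DFFA, LINC01128, MED18, NQO1, GSR, TXNRD1, the marker genes and TKTL1 and TKTL2 were named outside that rule, after their values were seen. Members and lists were chosen with earlier results of these data known. Of 92 list places outside the members, 10 genes had no probe set of their own in the tables used here. The probe set ratios, the shift of arrays numbered 1, the neighbours of list genes, the chromosome 1 blocks and the promoter motifs were added after the values were seen. Alternatives were other pseudocounts (1, 64), filters, normalizations, variance models, a batch factor, averaged probe sets and each array left out.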

Additional observations from a re-analysis of the deposited data

How the results depend on the processing

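With the replicate number as a block, limma called 2 member probe sets, 1 member gene and 12 genes of the related lists, and with a batch factor of replicate 1 against the others 2, 1 and 10. Without either it called 0, 0 and 0, and 2 list genes when array medians were centred. Leaving out single arrays gave 0 member calls and 0 to 1 list gene. Among blocked fits, none was called without the intensity trend (0, 0 and 0). Without a filter 1 member probe set and 5 list genes were called, and with a pseudocount of 64 the member genes numbered 2, PGLS being added. Without 1 replicate number in turn, 1 to 2 member probe sets and 7 to 12 list genes were called. Averaging a gene's probe sets in the blocked fit (chosen after seeing the data) kept the count of member genes at 1 with the block, but TKT took the place of PGD. Over the whole array the blocked calls ran from 0 genes without the trend and 270 without a filter to 967 with quantile normalization, against 846. PGD 201118_at stayed lower in all its alternatives (log2 -0.50 to -0.40), as did TKT 228205_at (-0.76 to -0.42) and TKT 208700_s_at, and PGLS 218388_at stayed higher, at 0.07 without TAT-2 array 1, 0.13 without vector array 3 and 0.52 without vector array 1. Log2 values that changed sign belonged to uncalled probe sets. With a pseudocount of 1, PGD 1560942_at was at -0.036 with and without the block. Leaving out arrays, it ran from -0.16 to 0.25 (blocked -0.32 to 0.28) and PGD 1560943_s_at from -0.054 to 0.21. PGLS 218387_s_at ran from -0.11 to 0.26 and PGLS 1554316_at from -0.30 to 0.018 (blocked -0.27 to 0.0027). TALDO1 ran from -0.081 to 0.026 (blocked -0.13 to 0.042, with 0.010 without replicate 2) and TKT 208699_x_at from -0.21 to 0.041. ME1 204059_s_at ran from -0.28 to 0.010, ME1 204058_at from -0.31 to 0.013, IDH1 1555037_a_at from -0.012 to 0.58 and IDH1 201193_at from -0.21 to 0.32 (blocked -0.060 to 0.077). Where it is not set by the number of arrays or genes fitted, the cause of these changes was not tested. Precision is limited by 3 arrays a group, and the dim probe sets of PGD and PGLS lie near the filter level.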

Other observations

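Some of the list genes that rose also lay among neighbours that were higher. The neighbours were looked at after these values were seen. MTHFD2L lies on chromosome 4, and 15 of its 20 nearest tested genes were higher in TAT-2 cells, 9 of them called with the block, with a median log2 fold change of 0.31 (0.29, 0.27 and 0.40 by replicate number). TXNRD2 lies on chromosome 22, where 19 of its 20 neighbours were higher, 6 of them called, with a median of 0.30. SCD lies on chromosome 10, where 20 of 20 neighbours were higher, 5 of them called, with a median of 0.24. Of 12116 genes taken in this way, 0.627%, 0.718% and 1.7% had neighbours with a median as high as those of MTHFD2L, TXNRD2 and SCD. The neighbours of NNT, which rose as well, stood near 0 (median -0.01). Among the reductases that fell with the block were GSR (-0.41), TXNRD1 (-0.39), NQO1 (-0.44) and the AKR1C genes. The neighbours of GSR (median 0.01), TXNRD1 (0.01) and the AKR1C genes (-0.05 to -0.03) stood near 0, and those of NQO1 were at -0.09. Those of HK2 were at 0.10, opposite in sign to HK2 itself (-0.43). With the block 3 of 20 neighbours were called lower for GSR, 2 for each AKR1C gene, and 1 each for NQO1 and NNT. The other AKR1C genes were not excluded from these counts. For TXNRD1 and HK2 1 neighbour each was called higher. Over all genes 3.46% were called lower and 3.5% higher.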
